A study of Mus musculus with 12 samples.

Results

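The Foxp genes Foxp1, Foxp2 and Foxp4 encode 3 related forkhead transcription factors, and their counts were followed across 4 groups of mouse brain punches. The members were taken by symbol from the deposited count table, 3 of its 54429 entries. The family was picked because Foxp2 was higher in isolated than in group-housed VTA, so the Foxp2 values of that contrast are given as a description, with no test. The punches came from C57BL/6 mice that had been early social isolated (ESI) or group housed (GH). The groups were isolated VTA and group-housed VTA from females, and isolated BLA and group-housed BLA from males, with 3 libraries each. VTA and BLA are the usual abbreviations for the ventral tegmental area, a midbrain nucleus, and the basolateral amygdala. Region and sex change together, so their contributions cannot be told apart. No age, length of isolation or number of animals behind a library is stated in the labels.

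Foxp proteins bind DNA through a forkhead domain and act mostly as repressors. They pair with themselves and with each other through a leucine zipper that lies beside a zinc finger, so the mix of family members in a cell sets which pairs can form. In rodent forebrain Foxp1 is known from striatal projection neurons and several cortical layers, and Foxp2 from striatal projection neurons, deep cortical layers, thalamus and the intercalated cell groups of the amygdala. Mutations of human FOXP2 impair speech, and mutations of human FOXP1 cause intellectual disability with language delay. Foxp4 is a broadly expressed relative that can pair with both. The remaining family member, Foxp3, is the defining factor of regulatory T cells.

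The sequences show how alike the members are and bear on whether reads of one gene could be taken for another. On build GRCm38 (mm10), Foxp1 lies on the minus strand of chromosome 6 from 98925338 to 99522721, and Foxp2 on the plus strand of the same chromosome from 14901349 to 15441977. Foxp4 lies on the minus strand of chromosome 17 from 47867133 to 47924645. Their reading frames hold 705 codons in Foxp1, 714 in Foxp2 and 685 in Foxp4, stop codon not counted, in the GENCODE transcripts used. Over 1995 aligned coding bases Foxp1 and Foxp2 were 69.5% identical. Foxp1 and Foxp4 were 62.6% identical over 1970 bases, and Foxp2 and Foxp4 64.3% identical over 1974 bases. The following 60 bases come from the zinc finger and are shown as a stretch in which the members are alike, with capitals at the 14 positions where the 3 genes differ. They lie in exon 11 of 20 of Foxp1 (chr6:98978150-98978209, minus strand), exon 10 of 19 of Foxp2 (chr6:15396767-15396826, plus strand) and exon 8 of 17 of Foxp4 (chr17:47877945-47878004, minus strand).
Foxp1: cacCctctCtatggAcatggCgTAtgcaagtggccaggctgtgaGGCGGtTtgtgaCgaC
Foxp2: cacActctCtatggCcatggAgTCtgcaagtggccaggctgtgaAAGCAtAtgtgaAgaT
Foxp4: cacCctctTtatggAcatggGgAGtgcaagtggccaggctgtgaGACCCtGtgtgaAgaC
Here 15 of the 20 codons encode the same residue in all 3 genes. Over all annotated transcripts, untranslated parts included, the longest run of identical bases was 35 between Foxp1 and Foxp2. It was 21 between Foxp1 and Foxp4 and 20 between Foxp2 and Foxp4. How far reads were shared between the genes was not tested. On its own strand Foxp1 shares 135 exon bases with the miRNA entry Gm49348 and 300 with the entry Gm20696, while Foxp2 and Foxp4 share no exon base with another annotated gene.

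Library totals ran between 28278708 and 69276892 counts. The summed level of 11 dopamine neuron markers was 839 to 1754 CPM (counts scaled to depth, with TMM factors over the 12 libraries) in VTA libraries and 95.3 to 131 CPM in BLA libraries, while Slc17a7, a glutamate transporter of synaptic vesicles in cortex and amygdala, was at 449 to 984 CPM in BLA. Isolated VTA library 3 stood apart, with Slc17a7 at 232 CPM against 2.88 to 23.8 CPM in the other VTA libraries, and with choroid plexus markers at a summed 5339 CPM against 318 to 843 CPM. Isolated VTA library 1 came next in both, with Slc17a7 at 23.8 CPM and a choroid plexus sum of 843 CPM. In group-housed VTA these ran from 2.88 to 5.20 CPM and from 318 to 439 CPM. Loci that collect ribosomal RNA reads took 18.6% of isolated BLA library 3, 28.6% of group-housed BLA library 1 and 41.8% of group-housed BLA library 2, and at most 1.57% elsewhere. Members were well counted, with 1655 to 8080 counts for Foxp1, 749 to 3776 for Foxp2 and 222 to 1067 for Foxp4 per library. Counting error alone was thus at most 2.46% for Foxp1, 3.65% for Foxp2 and 6.71% for Foxp4.

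In VTA the isolated libraries held more Foxp2 than the group-housed ones. Foxp2 stood at 57.4, 47.0 and 58.4 CPM in isolated VTA, against 35.5, 36.6 and 36.01 CPM in group-housed VTA. The groups did not overlap, and the group-housed libraries lay close together, with a coefficient of variation of 1.58% against 11.7% in isolated VTA. That 1.58% is below the counting error alone, which was 2.04, 2.15 and 1.82% in the group-housed VTA libraries. The mean was 54.3 ± 6.33 CPM in isolated VTA and 36.04 ± 0.569 CPM in group-housed VTA (SD, n = 3 each). The fitted log2 fold change of Foxp2, isolated over group-housed, was 0.53 (SE 0.09), higher than that of 95.4% of the 24082 genes fitted. It is the value the gene was picked on. Groups that did not overlap, with the isolated one higher, were found in 17.4% of all genes fitted in VTA and, with the isolated one lower, in 11.6%.

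Foxp1 averaged 43.7 ± 18.5 CPM in isolated VTA and 29.99 ± 3.65 CPM in group-housed VTA (SD, n = 3 each), a mean difference carried by 1 library. Its levels were 37.4, 29.3 and 64.6 CPM in isolated VTA, against 27.7, 28.1 and 34.2 CPM in group-housed VTA. The groups overlapped, since isolated library 2 lay within the group-housed range. The log2 fold change was 0.48 (SE 0.29) and did not pass the threshold (edgeR quasi-likelihood test, adjusted p = 0.396 over all genes). Without isolated library 3 it was 0.10 (SE 0.13). Foxp1 and Foxp2 are both known from striatal projection neurons. Isolated library 3 had the most RNA of striatal markers and the highest level of both genes among the VTA libraries. The summed level of 13 striatal projection neuron markers was 424, 383 and 989.8 CPM in isolated VTA, against 386, 404 and 373 CPM in group-housed VTA. None of the 13 was at 0 in any library. Their median log2 fold change was 0.47 with 11 of 13 above 0 and 0 passing, and 0.13 with 8 of 13 above 0 without isolated library 3. The 10 cortical and amygdalar glutamatergic markers summed to 269, 219 and 897 CPM in isolated VTA, against 184, 192 and 158 CPM in group-housed VTA. For these 10 the median log2 fold change was 1.42, with 10 of 10 above 0 and 0 passing the edgeR test. The groups did not overlap, with the isolated one higher, in 6 of the 10, against 17.4% of all genes. Without isolated library 3 the median was 0.50, again with 10 of 10 above 0. Emx1, a cortical transcription factor among these markers, had no count in 1 VTA library. The part of these markers in the Foxp1 values was not tested.

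Foxp4 had 15.9, 12.2 and 14.9 CPM in isolated VTA, against 10.7, 9.97 and 12.7 CPM in group-housed VTA. Isolated library 2 was below group-housed library 3, so the groups overlapped. The mean was 14.3 ± 1.91 CPM in isolated VTA and 11.1 ± 1.41 CPM in group-housed VTA (SD, n = 3 each), with a log2 fold change of 0.30 (SE 0.13). It did not pass the threshold (edgeR, adjusted p = 0.276). In the VTA fit 0.00415% of all genes passed, a single gene, while 18.3% had an unadjusted p under 0.05 and 486 genes passed with DESeq2. Because the family was picked on Foxp2 in this contrast, neither Foxp1 nor Foxp4 is independent of the choice.

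**Figure D1:**
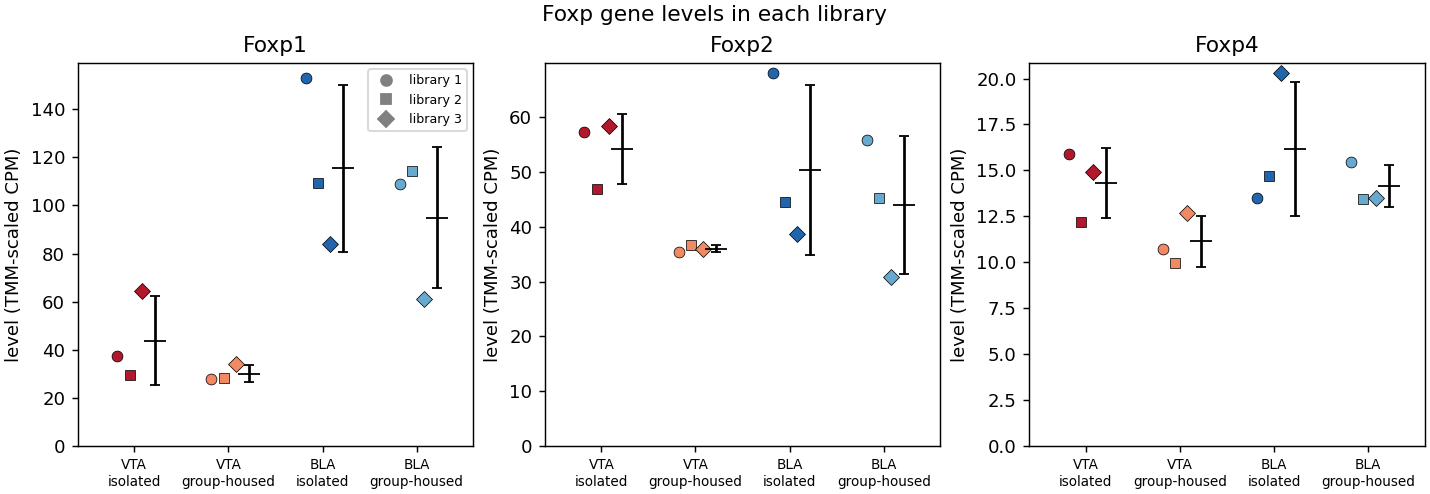
Level of Foxp1, Foxp2 and Foxp4 in each library, in TMM-scaled CPM on axes that start at 0, for isolated and group-housed VTA and isolated and group-housed BLA. Points are libraries 1, 2 and 3, and the bar is the mean ± SD of the 3 libraries. The 3 isolated VTA libraries lie at 47.0 to 58.4 CPM for Foxp2 and the 3 group-housed ones at 35.5 to 36.6 CPM, whereas the Foxp1 mean of isolated VTA is raised by library 3 at 64.6 CPM.

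Isolated library 2 had 47.0 CPM of Foxp2, above every group-housed VTA library. In that library the striatal sum of 383 CPM and the choroid plexus sum of 396 CPM lay within the group-housed ranges of 373 to 404 CPM and 318 to 439 CPM. Its glutamatergic sum of 219 CPM lay above the group-housed 158 to 192 CPM. Markers of the other cells in which Foxp2 is known were also summed, and apart from these, markers of oligodendrocytes. Intercalated cell markers (4 genes) were at 312, 302.98 and 422 CPM in isolated VTA, against 234, 276 and 302.67 CPM in group-housed VTA. Of these, 3 of 4 had a log2 fold change above 0, with a median of 0.28, and 0 passed the edgeR test. Deep cortical layer markers (8 genes) were at 186, 186 and 237 CPM in isolated VTA, against 181, 198 and 143 CPM in group-housed VTA. Thalamic markers (6 genes) were at 41.7, 24.1 and 35.6 CPM in isolated VTA, against 37.4, 27.1 and 30.2 CPM in group-housed VTA. Oligodendrocyte markers (6 genes) were at 12565, 9276 and 10496 CPM in isolated VTA, against 6548, 6358 and 10521 CPM in group-housed VTA. The part of these markers in the Foxp2 values was not tested. In punches, a change in the number of cells of a type cannot be told apart from a change in RNA per cell. With isolated libraries 1 and 3 both left out, 1 isolated library remained, and the SE rests on the spread of the group-housed libraries alone. There the log2 fold change was 0.36 (SE 0.09) for Foxp2, -0.060 (SE 0.14) for Foxp1 and 0.10 (SE 0.18) for Foxp4.

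**Figure D2:**
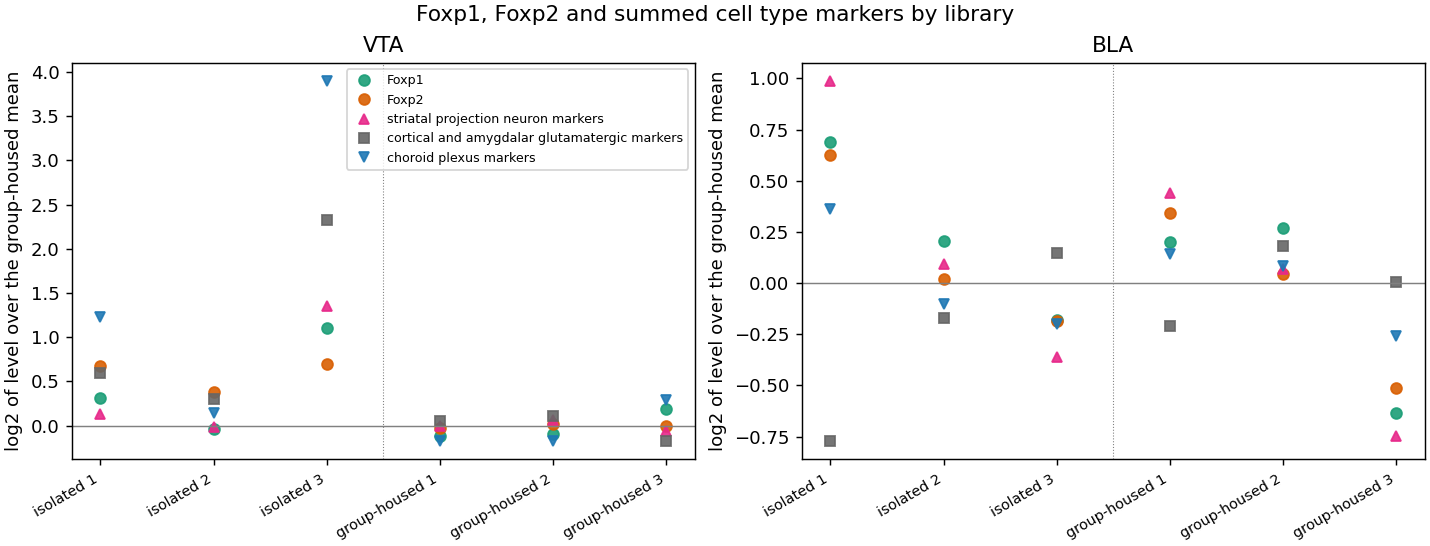
Log2 of the level over the mean of the group-housed libraries of the same region, for Foxp1, Foxp2 and the summed markers of striatal projection neurons, cortical and amygdalar glutamatergic neurons and choroid plexus, in each library of VTA (left) and BLA (right). In VTA isolated library 3 is high in every series, with a choroid plexus sum of 5339 CPM. In BLA Foxp1, Foxp2 and the striatal sum are all highest in isolated library 1 and all lowest in group-housed library 3.

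In BLA none of the 3 genes separated isolated from group-housed libraries. Foxp1 had 153, 109.5 and 83.9 CPM in isolated BLA, against 109, 114 and 61.2 CPM in group-housed BLA. Its mean was 115 ± 34.9 CPM in isolated BLA and 94.9 ± 29.3 CPM in group-housed BLA (SD, n = 3 each), and the log2 fold change was 0.29 (SE 0.31). Foxp2 had 68.1, 44.6 and 38.7 CPM in isolated BLA, against 55.9, 45.4 and 30.9 CPM in group-housed BLA. Its mean was 50.5 ± 15.5 CPM in isolated BLA and 44.0 ± 12.6 CPM in group-housed BLA, and the log2 fold change was 0.21 (SE 0.28). Foxp4 had 13.5, 14.7 and 20.3 CPM in isolated BLA, against 15.5, 13.4 and 13.5 CPM in group-housed BLA. Its mean was 16.2 ± 3.64 CPM in isolated BLA and 14.1 ± 1.15 CPM in group-housed BLA, and the log2 fold change was 0.19 (SE 0.16). All 3 fold changes were above 0, as were 50.8% of all genes fitted in BLA, and each was within or near 1 SE of 0. All 3 pairs of groups overlapped. Among all genes the groups did not overlap in 4.15% with the isolated group higher and in 2.96% with it lower.

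The unadjusted edgeR p-values in BLA were 0.379 for Foxp1, 0.484 for Foxp2 and 0.249 for Foxp4, and each adjusted p rounded to 1.00. Of all 22110 genes fitted in BLA, 0% passed with edgeR, 439 (1.99%) had an unadjusted p under 0.05, and 6 genes passed with DESeq2. Single libraries decided the sign for Foxp2 and Foxp4. The Foxp2 log2 fold change was -0.072 with isolated BLA library 1 left out. It was -0.00037 with group-housed BLA library 3 left out. Without isolated BLA library 3 the Foxp4 value was -0.0066. Foxp1 stayed above 0 when any 1 library was left out, at 0.035 to 0.47. With the 3 BLA libraries of high ribosomal RNA share left out, 2 isolated libraries and 1 group-housed library remained. There, with the spread taken from the isolated libraries alone, Foxp1 was at 1.10 (SE 0.23), Foxp2 at 0.87 (SE 0.26) and Foxp4 at 0.06 (SE 0.21), none past the threshold (edgeR, adjusted p = 0.886 for Foxp1).

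**Figure D3:**
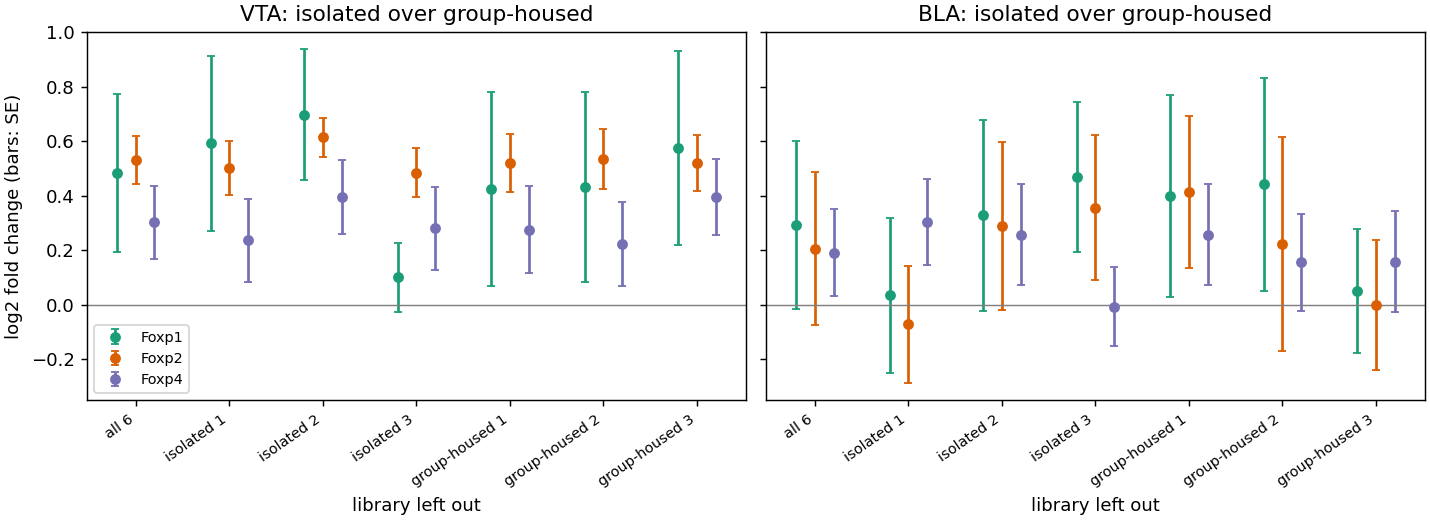
Fitted log2 fold change, isolated over group-housed, of Foxp1, Foxp2 and Foxp4 with all 6 libraries of a region and with each library left out in turn, for VTA (left) and BLA (right). Points are fitted values and bars are their SE. In VTA Foxp2, which was picked on these libraries and is shown as a description, is at 0.48 to 0.61. Foxp1 is at 0.10 without isolated VTA library 3. In BLA Foxp2 is at -0.072 without isolated library 1.

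Within BLA the libraries highest and lowest in Foxp1 and Foxp2 were also the highest and lowest in striatal markers. The 13 striatal markers summed to 4148, 2231 and 1629 CPM in isolated BLA, against 2836, 2196 and 1247 CPM in group-housed BLA. Isolated library 1 had the highest striatal sum and the highest level of both Foxp1 and Foxp2, and group-housed library 3 had the lowest of all 3. For Foxp2 the 6 libraries stood in the same order as for the striatal sum except that isolated library 2 and group-housed library 2, at 44.6 and 45.4 CPM, changed places. For Foxp1 isolated library 3 was also the second lowest, as for the striatal sum. The Foxp4 order was another one, with isolated library 3 highest and group-housed library 2 lowest. The log2 fold change in BLA was above 0 for all 13 striatal markers, with a median of 0.42, and 0 passed the edgeR test. The glutamatergic markers summed to 1666, 2524 and 3144 CPM in isolated BLA, against 2461, 3218 and 2850 CPM in group-housed BLA. The part of these markers in the Foxp values was not tested.

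The response of VTA minus that of BLA was fitted over all 12 libraries, and tested for Foxp1 and Foxp4. It holds the VTA contrast on which the family was picked. The difference of log2 fold changes was 0.26 (SE 0.49) for Foxp1 and 0.17 (SE 0.22) for Foxp4. Neither passed (edgeR, adjusted p = 0.827 for Foxp1 and 0.729 for Foxp4). For Foxp2, given as a description, it was 0.39 (SE 0.32). All 3 values were above 0, as were 55.3% of all genes. Among the 25009 genes fitted, 0% passed with edgeR, 14.9% had an unadjusted p under 0.05, and 138 genes passed with DESeq2. Without isolated VTA library 3 the Foxp1 value was -0.14.

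Among group-housed mice Foxp1 was lower in VTA than in BLA. Foxp1 had 27.7, 28.1 and 34.2 CPM in group-housed VTA, against 109, 114 and 61.2 CPM in group-housed BLA. Every VTA library was below every BLA library, and the log2 fold change, VTA over BLA, was -1.66 (SE 0.23), past the threshold (edgeR, adjusted p = 0.000895). It ran from -1.89 to -1.51 when each library was left out in turn. With both group-housed BLA libraries of high ribosomal RNA share left out it was -1.03, with 1 BLA library remaining. Of the members tested here, Foxp1 was called and Foxp4 was not. Of the 23535 genes fitted 40.3% were called, 21.3% lower and 19% higher in VTA. At an unadjusted p under 0.05 it was 48.6% of all genes, and 52.7% had a value above 0. The striatal markers, 10 of 13 of them called lower in VTA, had a median log2 fold change of -2.53, and the 10 glutamatergic markers, all called lower, of -4.32. Their part in the Foxp1 difference was not tested.

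For Foxp2 the region values are a description with no test, since the group-housed VTA libraries are part of the contrast the gene was picked on. It had 35.5, 36.6 and 36.01 CPM in group-housed VTA, against 55.9, 45.4 and 30.9 CPM in group-housed BLA, so the VTA values lay inside the BLA range. The log2 fold change was -0.29 (SE 0.18). It moved with single BLA libraries. With group-housed BLA library 3 left out, the one lowest in striatal markers, the value was -0.48. With library 1 left out it was -0.077, and with both libraries of high ribosomal RNA share left out 0.22, with 1 BLA library remaining.

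Foxp4 had 10.7, 9.97 and 12.7 CPM in group-housed VTA, against 15.5, 13.4 and 13.5 CPM in group-housed BLA. The groups did not overlap, as for Foxp1, while 26.4% of all genes fitted were lower and 27.5% higher in VTA with no overlap. The log2 fold change was -0.35 (SE 0.13) and missed the threshold (edgeR, adjusted p = 0.0603). With DESeq2 it passed at the same size, -0.35 (adjusted p = 0.0457), and so it did with limma voom and quality weights at -0.44 (adjusted p = 0.0159). Without group-housed VTA library 3 it was -0.45 (edgeR, adjusted p = 0.0282).

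**Figure D4:**
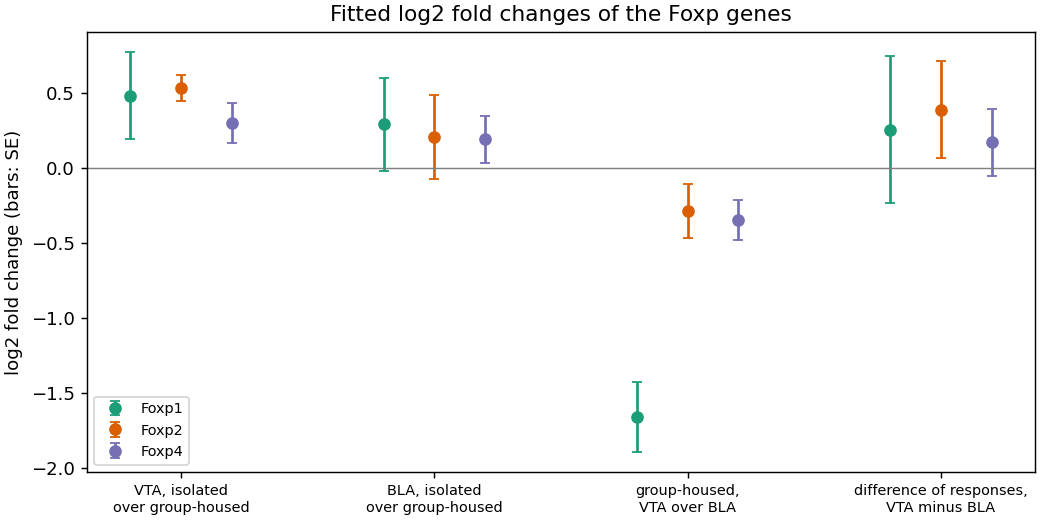
Fitted log2 fold changes of Foxp1, Foxp2 and Foxp4 in the 4 comparisons, with bars for the SE. Values above 0 are higher in isolated mice for the first 2 comparisons, higher in VTA for the third, and a larger response in VTA for the fourth. Foxp1 in group-housed VTA over BLA, at -1.66, is the lowest point, and all 3 genes are above 0 in both isolation comparisons.

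Set in order by mean level, no gene had the same order of groups as another. For Foxp1 the order was isolated BLA, group-housed BLA, isolated VTA and group-housed VTA, at 115, 94.9, 43.7 and 29.99 CPM, and the libraries of each neighbouring pair overlapped. For Foxp2 it was isolated VTA, isolated BLA, group-housed BLA and group-housed VTA, at 54.3, 50.5, 44.0 and 36.04 CPM, again with overlap in every neighbouring pair. For Foxp4 it was isolated BLA, isolated VTA, group-housed BLA and group-housed VTA, at 16.2, 14.3, 14.1 and 11.1 CPM. There only group-housed VTA lay clear of its neighbour.

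Levels of different genes were compared per kilobase of exon, over 13751 bases of Foxp1, 16346 of Foxp2 and 4926 of Foxp4. On that scale the 3 genes were near equal in group-housed VTA, with means of 2.18 CPM per kb for Foxp1, 2.21 for Foxp2 and 2.26 for Foxp4. In isolated VTA the means were 3.18, 3.32 and 2.91 CPM per kb in the same order of genes. In BLA Foxp1 led, with 8.39 CPM per kb in isolated and 6.90 in group-housed libraries. Foxp2 had 3.09 CPM per kb in isolated and 2.69 in group-housed BLA, and Foxp4 had 3.28 in isolated and 2.87 in group-housed BLA. Foxp1 therefore made up a mean 56.1% of the family's summed level in isolated BLA and 54.7% in group-housed BLA. In VTA its mean share was 32.9% in isolated and 32.7% in group-housed libraries. By library that share was 28.8, 28.5 and 41.6% in isolated VTA, against 31.6, 32.4 and 34.2% in group-housed VTA. These figures use the union of all annotated exons, and the transcripts in use may be shorter.

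The ratio of Foxp2 to Foxp1 per kilobase kept the regions apart in every library. It was 1.29, 1.35 and 0.761 in isolated VTA, against 1.08, 1.10 and 0.886 in group-housed VTA. In BLA it was 0.375, 0.343 and 0.389 in isolated libraries, against 0.431, 0.333 and 0.424 in group-housed ones. The lowest VTA value, in isolated library 3, was above the highest BLA value. Within BLA the ratio varied little although both genes varied widely, with a mean of 0.369 ± 0.0235 in isolated and 0.396 ± 0.0545 in group-housed BLA (SD, n = 3 each). Within VTA the isolated libraries 1 and 2 lay above and library 3 below all group-housed libraries. No test was made on the ratio, since it holds the Foxp2 value that the family was picked on.

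**Figure D5:**
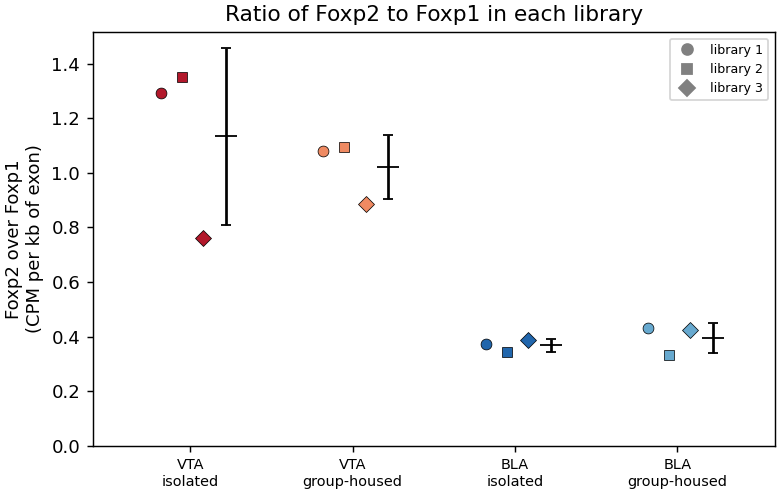
Ratio of Foxp2 to Foxp1, each in CPM per kilobase of exon, in each library of isolated and group-housed VTA and isolated and group-housed BLA, on an axis that starts at 0. Points are libraries and bars are mean ± SD of 3. All VTA libraries are at 0.761 or more and all BLA libraries at 0.431 or less.

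Foxp proteins work with co-repressors and with other transcription factors, and 25 such partner genes were followed. In VTA 20 of the 25 had a log2 fold change above 0, isolated over group-housed, and 5 below, with a median of 0.14 against -0.00 for all genes, where 49.8% were above 0. Of the 25, 0 passed the edgeR test, 4 had an unadjusted p under 0.05, as had 18.3% of all genes, and 0 passed with DESeq2. Ctbp1, a co-repressor that Foxp1 and Foxp2 bind, had 187, 161 and 173 CPM in isolated VTA, against 133, 146 and 156 CPM in group-housed VTA, a log2 fold change of 0.20 (SE 0.08; edgeR, adjusted p = 0.262). The NuRD chromatin complex subunit Mta1 was at 0.20 (SE 0.09) and the NuRD remodelling ATPase Chd4 at -0.16 (SE 0.07). Tbr1, a cortical transcription factor that pairs with FOXP2 and is also one of the glutamatergic markers, had 1.54, 0.809 and 12.8 CPM in isolated VTA, against 0.488, 0.578 and 0.476 CPM in group-housed VTA. Its log2 fold change was 3.23 (SE 1.17), and 1.12 (SE 0.36) without isolated library 3.

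In BLA 9 partners were above 0 and 16 below, with a median of -0.04, and 0 passed with edgeR or DESeq2 or had an unadjusted p under 0.05. In group-housed VTA 19 of 25 partners were called lower than in BLA and 5 higher, where 21.3% of all genes were called lower and 19% higher, with a median of -0.52 against 0.04 for all genes. Ctbp2, the paralog of Ctbp1, had 46.0, 46.9 and 43.1 CPM in group-housed VTA, against 16.5, 14.3 and 15.7 CPM in group-housed BLA, a log2 fold change of 1.54 (SE 0.10; edgeR, adjusted p = 7.3e-07). Ctbp1 went the other way, at -0.29 (SE 0.09; edgeR, adjusted p = 0.0255). Lower in VTA were also Tbr1 at -6.88 (SE 0.33), the orphan nuclear receptor Nr2f1 at -1.62 (SE 0.12) and the NuRD ATPase Chd3 at -0.95 (SE 0.08).

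Of genes described as Foxp targets, 10 were followed. In VTA 8 were above 0 and 2 below, with a median of 0.17. Of the 10, 0 passed with edgeR and 1 had an unadjusted p under 0.05, against 18.3% of all genes. With DESeq2 1 of the 10 passed, against 486 of the 24082 genes fitted. Vldlr, a reelin receptor, was the target with the smallest p. It had 127, 122 and 133 CPM in isolated VTA, against 100.3, 104 and 104 CPM in group-housed VTA. These groups did not overlap, as in 17.4% of all genes with the isolated one higher. The log2 fold change was 0.26 (SE 0.06; edgeR, adjusted p = 0.236). The retinoic acid receptor gene Rarb was at 0.51 (SE 0.30), the secreted synapse factor Srpx2 at 0.32 (SE 0.20) and the potassium channel gene Kcnk2 at -0.17 (SE 0.10). Without isolated library 3 Rarb was at 0.05 (SE 0.17).

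In BLA 5 targets were above 0 and 5 below, and 0 passed with edgeR or DESeq2 or had an unadjusted p under 0.05. Between the regions 5 of 10 targets were called lower and 2 higher in group-housed VTA, against 21.3% lower and 19% higher of all genes. Mef2c, an activity-regulated factor that Foxp2 represses in mouse striatum, had 45.2, 43.5 and 34.9 CPM in group-housed VTA, against 550.03, 654 and 669 CPM in group-housed BLA, a log2 fold change of -3.92 (SE 0.13; edgeR, adjusted p = 1.45e-08). Rarb was at -1.73 (SE 0.22), Kcnk2 at -1.04 (SE 0.14) and Vldlr at -0.52 (SE 0.07), all called lower in VTA. Mef2c also showed how far isolated VTA library 3 stood from the rest, with 44.0, 40.5 and 261 CPM in isolated VTA.

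Other forkhead genes give a scale for the members. The table lists 44 forkhead genes, and 22 apart from Foxp1, Foxp2 and Foxp4 reached a mean of 1 CPM in at least 1 region. In VTA 15 of them were above 0 and 7 below, with a median of 0.10. Of the 22, 0 passed with edgeR and 3 had an unadjusted p under 0.05, against 18.3% of all genes. With DESeq2 1 of the 22 passed, against 486 of the 24082 genes fitted. Foxa2, a midbrain dopamine neuron factor, had 7.22, 7.004 and 6.44 CPM in isolated VTA, against 2.62, 3.89 and 6.10 CPM in group-housed VTA, with a log2 fold change of 0.66 (SE 0.28). In BLA 17 of the 22 could be fitted, with 8 above 0, 9 below and 0 that passed.

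Between the regions 11 of the 22 were called higher and 9 lower in group-housed VTA, against 19% higher and 21.3% lower of all genes. Foxa1, the partner of Foxa2 in dopamine neurons, had 4.66, 5.44 and 6.69 CPM in group-housed VTA and no count in any BLA library. Foxk1, a broadly expressed forkhead factor, was called lower in VTA at -1.48 (SE 0.12). Foxj1, the factor of ciliated cells, was called higher at 2.34 (SE 0.17). Foxp3 was near the lower limit of the data, with 10 to 87 counts per library. It had 0.429, 0.846 and 0.483 CPM in isolated VTA, against 1.04, 1.26 and 1.04 CPM in group-housed VTA, with a log2 fold change of -0.94 (SE 0.34; edgeR, adjusted p = 0.244). In group-housed VTA over BLA it was at 0.88 (SE 0.29; edgeR, adjusted p = 0.0312).

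For each member the genes with the most similar profile were sought among 12157 genes with a mean of at least 5 CPM, by the SD over the 12 libraries of the log2 ratio to the member. For Foxp2 these were Klhl13 at 0.15, Chn2 at 0.16, Rerg at 0.18 and Rgs8 at 0.19. Klhl13 had 155, 124 and 163 CPM in isolated VTA, against 107, 114 and 104 CPM in group-housed VTA, and 159, 119.6 and 93.6 CPM in isolated BLA, against 140.2, 106 and 95.6 CPM in group-housed BLA. In BLA it was highest in isolated library 1, as Foxp2 was, a likeness built in by choosing the gene on these same libraries. For Foxp1 the nearest were Cacna2d3 at 0.17, Mctp1 at 0.18, Sema3e at 0.19 and Adcy5 at 0.20, of which Adcy5 is one of the 13 striatal markers. For Foxp4 they were Gm11808 at 0.11, Pacsin3 at 0.11, Vash1 at 0.12 and Stmn4 at 0.13. The libraries of a region and their depth are shared by all these values, and genes that vary little come out near any member that varies little.

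The nearest protein-coding genes with a mean of at least 1 CPM were read in the same VTA fit. Beside Foxp2 lie 2610001J05Rik, 1030 kb away, and Mdfic, 279 kb away. Log2 fold changes in VTA were 0.08 (SE 0.09) for 2610001J05Rik and 0.87 (SE 0.49) for Mdfic, or 0.17 (SE 0.32) for Mdfic without isolated library 3. Beside Foxp1, Mitf was at 0.19 (SE 0.18) and Eif4e3 at 0.01 (SE 0.11). Beside Foxp4, Tfeb was at 0.06 (SE 0.19) and Trem2 at 0.09 (SE 0.21). None of these 6 passed the edgeR test in VTA, with adjusted p of 0.361 or more.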

How the data were processed

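RNA of 12 brain punches was sequenced from stranded, ribosome-depleted total RNA libraries, per the labels' protocols. The deposited values are raw read counts per gene. Per the submitters' processing notes, cutadapt, TopHat2 and HTSeq were used with mm10. Versions, annotation, strand setting and mate handling were not given in the sources used here. Regions, housing and replicates come from titles and treatment labels, sex from the design text. Whether libraries of a group are separate animals is not stated, so a p-value reflects only how these libraries vary, perhaps for technical reasons.

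Low genes were removed with filterByExpr at a minimum count of 10 and a minimum total of 15. TMM factors and the robust quasi-likelihood F test came from edgeR 4.0.16 under R 4.3.3, on the 6 libraries of each comparison or all 12 for the difference of responses. Benjamini-Hochberg adjustment ran over all genes, threshold 0.05. CPM uses TMM factors over 12 libraries. The scripts were tested on simulated data. DESeq2 1.42.0, limma 3.58.1 (voom), RLE factors, no filter, a replicate block, left-out libraries and left-out ribosomal RNA loci were alternatives. Library pairs within a group differed by more than counting noise, with chi-square over its degrees of freedom at 20.8 or more in 12 pairs. The series table and the library tables differed at 2 entries, at no member, and 98.8% of names matched GENCODE M21. Coding sequences from GENCODE M21 were aligned with mafft 7.526. Figures were drawn with matplotlib 3.10.9.

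Members, lists and tests were chosen with earlier results of these data known. Foxp2 is given without a test wherever VTA libraries enter. Named were the 3 members and Foxp3, up to 6 other forkhead genes and up to 4 partners and 4 targets per comparison by smallest p, the 4 genes of most similar profile per member, and the nearest expressed protein-coding genes. Ctbp1 in the region comparison and Mef2c in VTA were named after their values were seen. Marker lists were used as summed CPM. Some items that these rules would name are not reported here.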

Additional observations from a re-analysis of the deposited data

How the results depend on the processing

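Counts of genes that pass in the isolation comparisons moved with the tool and the libraries. In VTA 1 gene passed with edgeR, against 17 with no filter on low counts, 486 with DESeq2, 2 with limma voom and 0 to 1200 with each library left out in turn, the most without isolated library 2. In BLA it was 0, against 8 with no filter, 6 with DESeq2 and 0 to 4 with a library left out. For the difference of responses it was 0, against 1 with no filter, 138 with DESeq2 and 0 to 487 with a library left out, the most without isolated VTA library 2. In group-housed VTA over BLA 9477 genes passed, and 7370 to 10083 over 12 alternatives. The cause of these shifts was not tested, and the fits with a library left out also hold fewer libraries.

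Of the members, Foxp2 was picked on the VTA libraries, so its values there are a description. Foxp2 was at 0.48 to 0.61 with each VTA library left out, and at 0.36 with isolated libraries 1 and 3 left out. With both of these left out Foxp1 was at -0.060. Leaving out 1 library gave 0.10 to 0.70 for Foxp1 and 0.22 to 0.40 for Foxp4 in VTA. In BLA it gave 0.035 to 0.47 for Foxp1, -0.072 to 0.41 for Foxp2 and -0.0066 to 0.30 for Foxp4. Between the regions it gave -1.89 to -1.51 for Foxp1, -0.48 to -0.077 for Foxp2 and -0.45 to -0.27 for Foxp4. Foxp4 there was -0.35 with DESeq2 and -0.44 with voom, both past the threshold. An alternative chosen after the data were seen left out both BLA libraries rich in ribosomal RNA reads. There Foxp1 was -1.03, Foxp2 0.22 and Foxp4 -0.28. With 1 library left out the difference of responses ran from -0.14 to 0.51 for Foxp1, 0.18 to 0.66 for Foxp2 and 0.054 to 0.36 for Foxp4. Leaving isolated VTA library 3 out of the gene lists was also chosen after the data were seen, and left 19 of 25 partners, 8 of 10 targets and 14 of 22 other forkhead genes above 0, with 0 passing.

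No label says whether libraries of the same replicate number belong together, and correlations within groups of 3 libraries cannot decide it. Deviations of same-numbered isolated and group-housed libraries correlated at -0.09, 0.00 and -0.04 in VTA and at 0.33, -0.09 and 0.01 in BLA. Those of differently numbered libraries correlated at -0.14 to 0.18 in VTA and at -0.24 to 0.25 in BLA. With the replicate block 0 genes passed in VTA, 0 in BLA, 8569 between the regions and 0 for the difference. With it the log2 fold change in VTA was 0.42 for Foxp1, 0.53 for Foxp2 and 0.30 for Foxp4. In BLA the block gave 0.30 (SE 0.12) for Foxp1, 0.20 (SE 0.11) for Foxp2 and 0.18 (SE 0.15) for Foxp4. Without the block the SEs in BLA were 0.31, 0.28 and 0.16 in the same order. Between the regions the block gave -1.62 (adjusted p = 0.0119, edgeR) for Foxp1, -0.25 for Foxp2 and -0.35 for Foxp4.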

Other observations

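Marker lists of cells not described above also differed among the VTA libraries. Hypothalamic markers (6 genes) summed to 35.4, 73.9 and 18.8 CPM in isolated VTA, against 96.9, 122 and 43.7 CPM in group-housed VTA. Midbrain GABA neuron markers (7 genes) were at 613, 223 and 547 CPM in isolated VTA, against 435, 402 and 514 CPM in group-housed VTA, lowest in isolated library 2. Endothelial markers (7 genes) were at 222, 235 and 184 CPM in isolated VTA, against 164, 199 and 244 CPM in group-housed VTA. Microglial markers (6 genes) were at 224, 184 and 282 CPM in isolated VTA, against 178, 190.4 and 204 CPM in group-housed VTA. Astrocyte markers (6 genes) were at 2896, 2889 and 3286 CPM in isolated VTA, against 2547, 2760.2 and 2451 CPM in group-housed VTA, so that every isolated library was above every group-housed one. In these lists 0 genes passed the edgeR test in VTA.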
